A study of Mus musculus with 10 samples.

Results

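The effect of depolarization on translation efficiency was described by the function of the genes concerned. Translation efficiency (TE) is the ribosome footprint density on the coding sequence (CDS) over the abundance of the same mRNA. Of 13193 genes with counts, 4370 were measured well enough in both assays to be compared, each by 1 transcript, the one with the highest mean RNAseq count. A transcript counted as measured when RNAseq and footprint values were both at least 10 RPKM (reads per kilobase of transcript, scaled to library size) in 2 or more cultures, each time in both assays of a culture. The genes were then read by 81 lists of shared function, by protein classes predicted from the coding sequence, and by features of the 5′UTR.

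Cortical cells of newborn FVB mice, with no genetic change or other drug named in the labels, were kept in culture for 7 days, with neurons and glia mixed. Cultures 1, 2 and 3 were left untreated, and cultures 4 and 5 received 55 mM KCl for 3 h. All were given cycloheximide, which stalls ribosomes on the mRNA, before lysis. Each culture gave an RNAseq library and a ribosome footprint (RF) library, 10 libraries in all. A mixed culture limits the model, because a value is an average over neurons, astrocytes and other glia, and fewer cells of a type and less RNA per cell cannot be told apart.

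Raised extracellular KCl depolarizes neurons and opens voltage-gated calcium channels. Calcium signalling then induces immediate early genes at the level of transcription, and it also reaches the translation machinery through kinases that act on initiation factors and on mTOR. Which mRNAs gain or lose ribosomes depends in part on their 5′UTR, since an upstream AUG (uAUG) can engage scanning ribosomes before they reach the CDS.

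RF libraries held between 1463654 and 7719915 reads and RNAseq libraries between 3056286 and 3629959. The RF libraries of untreated culture 3 and KCl culture 4 were the shallowest, with medians of 70 and 75 CDS footprints per measured gene against 376, 323.5 and 144 in cultures 1, 2 and 5. Astrocyte markers dominated the marker lists, with summed RNAseq levels of 22250 to 27959 CPM (counts scaled to library size) against 1525 to 1984 for neuron markers. The KCl cultures lay below all untreated ones in the first sum and among them in the second. Of the 28 neuron markers searched, 4 had no counts (Map2, Syp, Dcx and Slc17a6), and 4 of the 24 astrocyte markers had none (Glul, F3, Sparcl1 and Ppap2b).

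After KCl, more genes lost TE than gained it. At an adjusted p under 0.05 (edgeR quasi-likelihood test of the assay by treatment interaction, with culture as a block), 64 genes (1.46%) were higher in TE and 198 (4.53%) were lower. TE of both KCl cultures lay above all 3 untreated cultures in 657 genes (15.0%) and below all of them in 840 (19.2%). The median change over all genes was -0.00 on the log2 scale, with quartiles of -0.25 and 0.23. In the same genes, RNAseq rose in 776 (17.8%) and fell in 665 (15.2%), and RF rose in 871 (19.9%) and fell in 873 (20.0%).

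Losses of TE took 3 forms. Of the 198 genes with lower TE, 106 had no RNAseq call and fell in RF, 80 rose in RNAseq, and 12 fell in both assays. Of those 80, 50 had no RF call, 17 rose in RF and 13 fell in RF. In these 80, footprints rose less than the mRNA or fell. Of the 64 genes with higher TE, 25 had no RNAseq call and rose in RF, 25 fell in RNAseq, and 12 rose in both assays. The calls depended on the KCl cultures. When culture 4 was left out, 13 of the 64 and 64 of the 198 calls were kept, and without culture 5 the numbers were 10 and 45. In each of the 5 fits without 1 culture, 5 of the 64 and 25 of the 198 were called. With DESeq2 in place of edgeR 20 of the 64 and 84 of the 198 stayed called, and with RNAseq counted on the CDS only 21 and 93. Without untreated culture 1, 2 or 3, 52, 45 and 34 of the 64 calls were kept, and 180, 164 and 141 of the 198.

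**Figure D1:**
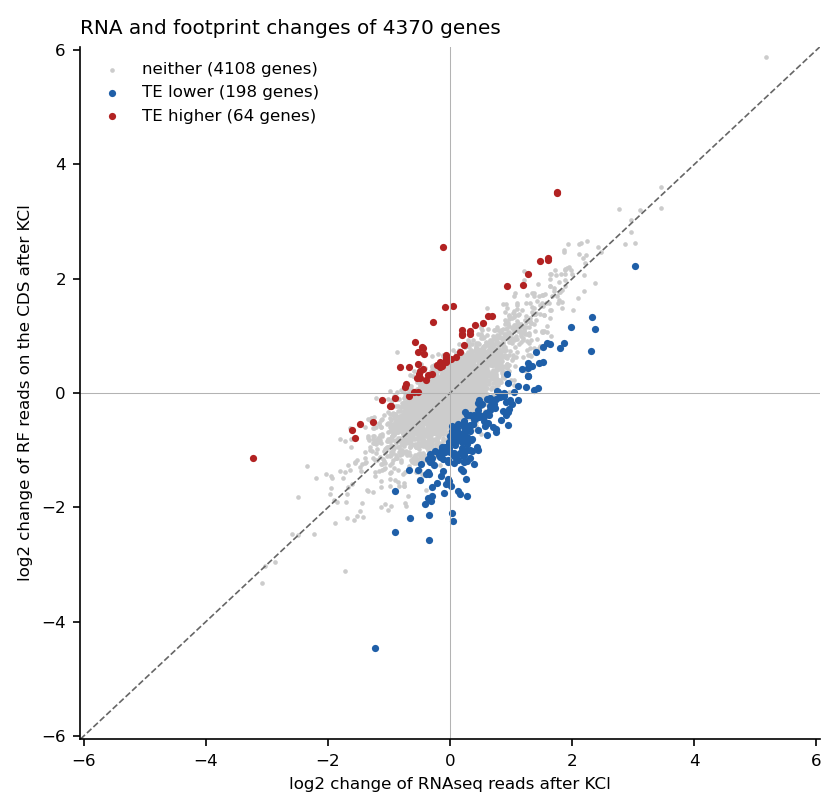
The log2 change of RF reads on the CDS after KCl is plotted against the log2 change of RNAseq reads for 4370 genes, one point per gene, with a dashed line where both changes are equal. The 198 genes with lower TE (blue) lie below the line, many of them with RNAseq near 0 or higher, and the 64 with higher TE (red) lie above it.

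The plot of gene lists sets out the direction by function. Lists of the mitochondrial ribosome, respiratory chain and TCA cycle and of glial markers lay among the highest. Lists of receptors, kinases, ubiquitin ligases and the circadian clock lay among the lowest. No test was made of a list as such. Each is described by its calls and its median, to be read beside those of all genes tested (1.46% higher, 4.53% lower, median -0.00).

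**Figure D2:**
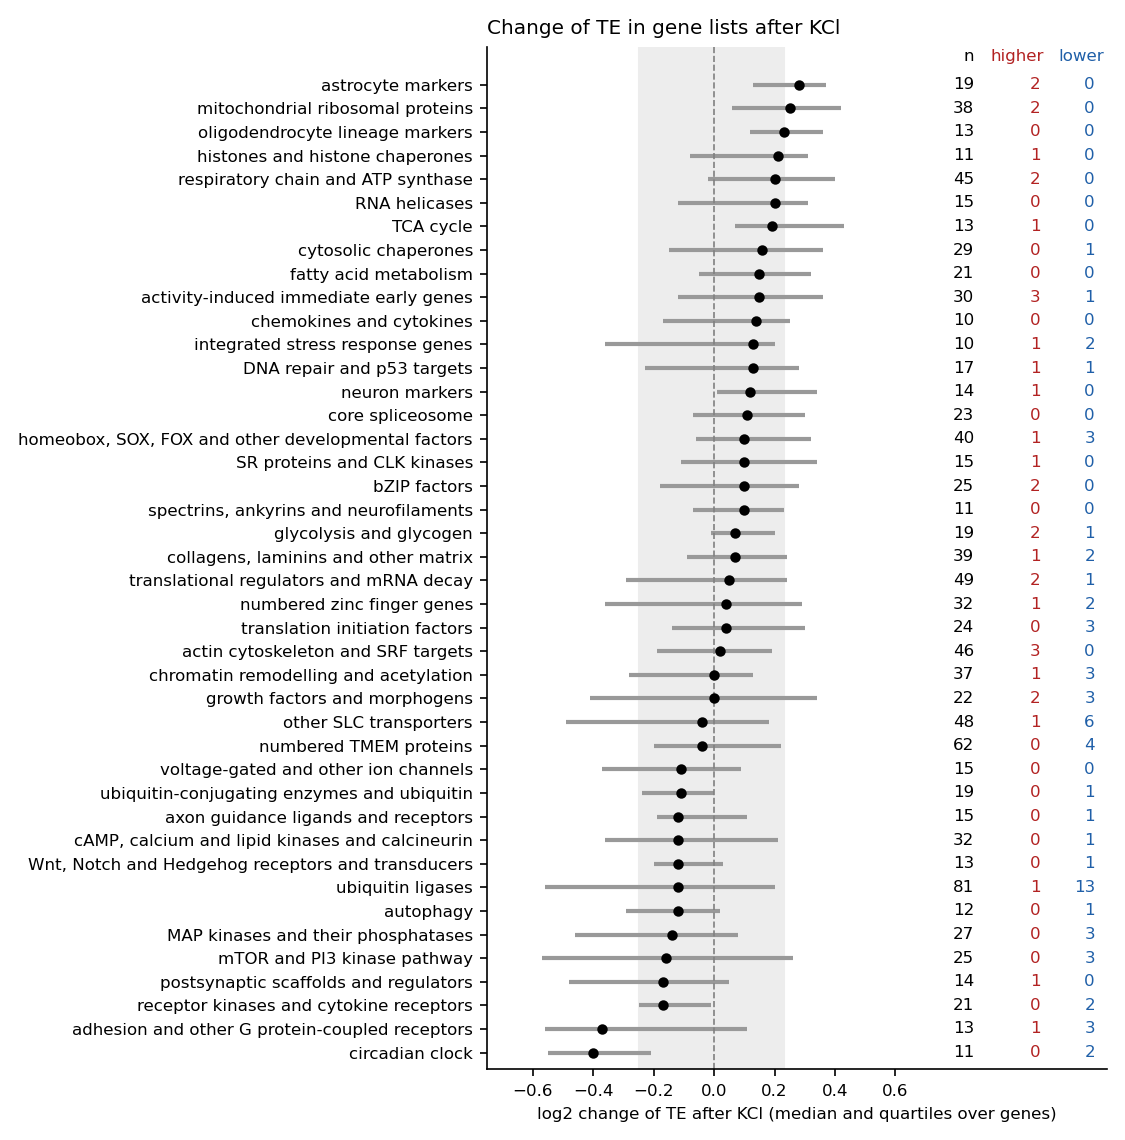
Points show the median log2 change of TE after KCl for the gene lists reported here with at least 10 measured genes and either a median of at least 0.1 in size or at least 3 called genes, and bars show the quartiles over genes. The shaded band and dashed line give the quartiles (-0.25 and 0.23) and median of all 4370 genes, and the columns give the genes measured, called higher and called lower, from 11 measured clock genes with 0 and 2 called to 19 astrocyte markers with 2 and 0.

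The lists of the mitochondrial ribosome, the respiratory chain and the TCA cycle lay above the median of all genes, with calls in one direction. Mitochondrial import (14 genes) had 0 calls and a median of 0.08. Of the mitochondrial carriers given below, Slc25a39 and Slc25a44 were lower and Slc25a25 was higher. The proteins of the mitochondrial ribosome, which translates the few mRNAs of the mitochondrial genome, had a median log2 change of TE of 0.25 over 38 genes, with 32 of them positive, 2 called higher and 0 lower. Their RNAseq median was -0.40 and their RF median -0.13, with 15 genes lower in RNAseq and 9 in RF. Per culture, the median log2 TE of the list minus that of all genes was -0.09, -0.24 and -0.41 without and 0.13 and 0.11 with KCl. The groups did not overlap, but lists with 0 calls could separate as well. Proteasome subunits, with 0 of 30 called, were at 0.41, 0.28 and 0.40 without and 0.72 and 0.59 with KCl. The respiratory chain and ATP synthase had a median of 0.20 over 45 genes (32 positive, 2 higher, 0 lower), and the TCA cycle one of 0.19 over 13 genes (11 positive, 1 higher, 0 lower). For the respiratory chain the culture medians overlapped, at -0.11, -0.24 and -0.35 without and 0.03 and -0.12 with KCl.

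The called members came from several compartments of the organelle. Mrpl28, a protein of the large mitochondrial subunit, had a TE of 1.17, 1.03 and 0.848 without and 3.21 and 1.49 with KCl, a log2 change of 1.04 (SE 0.25, adjusted p = 0.002). Mrpl34 of the same subunit went from 0.631 ± 0.0738 (SD, n = 3) to 1.26 ± 0.399 (SD, n = 2; adjusted p = 0.0417). Ndufa2, a subunit of complex I, had 0.867, 0.53 and 0.67 without and 1.04 and 1.05 with KCl (log2 change 0.62, adjusted p = 0.0308). All of these KCl values lay above the untreated ones. Uqcrq, a subunit of complex III, changed by 1.27 (adjusted p = 0.0482) on only 34, 12 and 9 footprints without and 10 and 17 with KCl. Sucla2, a subunit of succinyl-CoA synthetase, had 5.2, 4.58 and 3.55 without and 5.81 and 13.2 with KCl (adjusted p = 0.00326), so its size rested on culture 5. Without culture 4 the changes of Mrpl28 and Mrpl34 were 0.55 and 0.63 (adjusted p = 0.542 and 0.548), and without culture 5 that of Sucla2 was 0.39 (adjusted p = 0.779). Ndufa2 and Uqcrq were called in neither fit without a KCl culture (0.64 and 0.61, and 1.20 and 1.38), and Mrpl34 was not called without culture 5 (1.27). Leaving out an untreated culture also ended the call of Mrpl34 (0.82 without 2, 0.88 without 3), Ndufa2 (0.43 and 0.62), Uqcrq (0.78 without 2) and Sucla2 (0.82 without 3).

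Glycolysis held few calls, in both directions. Of 19 measured genes, 2 were higher (10.5%) and 1 lower (5.26%), with a median of 0.07. Tpi1, triosephosphate isomerase, had a TE of 1.79, 1.09 and 1.11 without and 1.98 and 1.92 with KCl (log2 change 0.58, adjusted p = 0.0264). Ugp2, which makes UDP-glucose for glycogen, went from 3.45, 4.31 and 4.43 to 6.14 and 5.63 (log2 change 0.55, adjusted p = 0.0422). Slc2a3, the neuronal glucose transporter GLUT3, fell from 5.59, 5.84 and 6.5 to 3.06 and 3.71. Its mRNA rose by 1.27 on the log2 scale and its footprints by 0.52 (TE -0.80, adjusted p = 0.0161). None of the 3 was called when either KCl culture was left out, with changes of 0.50 to 0.61 for the enzymes and -0.66 and -0.95 for Slc2a3. The calls of Tpi1 (0.49), Ugp2 (0.62) and Slc2a3 (-0.74) ended without culture 3 as well, as did that of Tpi1 without 2 (0.43) and of Ugp2 without 1 (0.44). Cholesterol synthesis (27 genes) and fatty acid metabolism (21 genes) had 0 calls, with medians of -0.03 and 0.15.

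Markers of glia lay above the median of all genes in TE, and neuron markers did so by less. Of 19 measured astrocyte markers, 16 were positive and 2 were called, with a median of 0.28. Aqp4, the water channel of astrocyte endfeet, had a TE of 4.61, 5.33 and 6.49 without and 9.12 and 10.4 with KCl (log2 change 0.85, SE 0.16, adjusted p = 2.43e-05). Slc1a3, the glutamate transporter GLAST, went from 4.69, 5.24 and 6.57 to 8.16 and 8.46 (log2 change 0.61, adjusted p = 0.00623). In both genes RNAseq fell, by 0.51 and 0.40 on the log2 scale, while RF rose. Gfap, the glial intermediate filament, had 4.2, 3.26 and 3.45 without and 4.51 and 4.16 with KCl and did not pass the test (0.26, adjusted p = 0.41). The median was 0.28 over 6 microglia markers (6 positive, 0 called) and 0.23 over 13 oligodendrocyte lineage markers (10 positive, 0 called). Culture medians relative to all genes overlapped for the oligodendrocyte list but not for microglia. The median was 0.12 over 14 neuron markers (11 positive, 1 higher). Of 5 endothelial, mural and fibroblast markers 3 were positive (median 0.26) but 2 were called lower. Their culture medians were 1.48, 0.97 and 1.49 without and 0.59 and 0.77 with KCl. Summed RF of the astrocyte markers was 45289 to 48647 CPM in untreated and 49526 and 50672 in KCl cultures, while their summed RNAseq was 25711 to 27959 and 22250 and 25314. In RF both KCl sums lay above all untreated ones, and in RNAseq below. The part of cell composition in these values was not tested. Without culture 5 the changes of Aqp4 and Slc1a3 were 0.75 and 0.59 (adjusted p = 0.0735 and 0.264), and Slc1a3 also lost its call without culture 4 (0.65, adjusted p = 0.121).

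**Figure D3:**
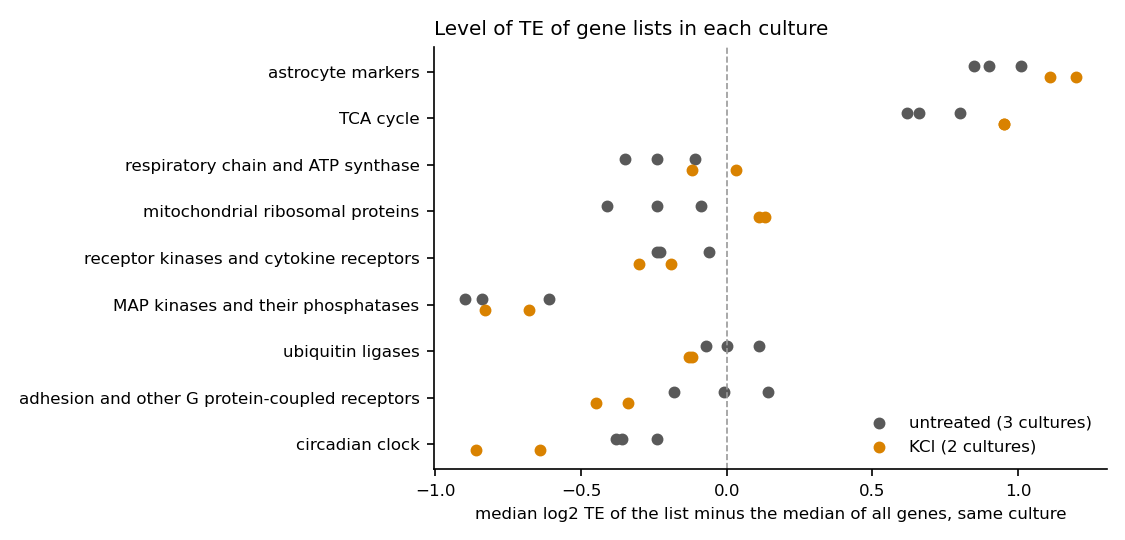
Each point is the median log2 TE of a gene list in 1 culture minus the median of all genes in that culture, for 3 untreated (grey) and 2 KCl (orange) cultures. The KCl cultures lie above the untreated ones for mitochondrial ribosomal proteins, the TCA cycle and astrocyte markers. They lie below them for the clock, G protein-coupled receptors and ubiquitin ligases, and overlap for MAP kinases, receptor kinases and the respiratory chain. Lists not shown, such as proteasome subunits, can separate too.

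Immediate early genes rose mainly through their mRNA, and in a few TE rose as well. Of 30 measured, RNAseq rose in 26 and RF in 26, with medians of 1.49 and 1.84 on the log2 scale. TE was higher in 3 (10%) and lower in 1 (3.33%), against 1.46% and 4.53% of all genes, with a median of 0.15. Jun, a subunit of the AP-1 factor, had a TE of 2.58, 1.83 and 1.81 without and 3.39 and 3.36 with KCl (log2 change 0.71, SE 0.18, adjusted p = 0.00501). Gadd45g, a growth arrest and DNA damage gene, had 1.43, 1.14 and 2.43 without and 3 and 2.38 with KCl, where 1 untreated culture lay above a KCl culture (0.80, adjusted p = 0.00671). Fos, the partner of Jun in AP-1, changed by 0.68 (adjusted p = 0.0483) and lost its call when any of cultures 2 to 5 was left out (0.58, 0.74, 0.90 and 0.45). Srf, the serum response factor that drives many of these genes, went the other way, with 0.639, 0.5 and 0.785 without and 0.227 and 0.179 with KCl (-1.62, SE 0.28, adjusted p = 1.29e-06). Its mRNA rose by 2.31 and its footprints by 0.74 on the log2 scale, and it was called in all 5 fits without 1 culture. Jun and Gadd45g were called in neither fit without a KCl culture (0.72 in both for Jun, 0.65 and 0.97 for Gadd45g), nor was Jun without culture 3 (0.65) or Gadd45g without culture 2 (0.59).

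Cytoskeletal genes that gained TE were binders of actin. Among 46 measured actin and SRF target genes 3 were higher (6.52%, against 1.46% of all genes) and 0 lower, with a median of 0.02, so the list as a whole stayed near the middle. Marcks, a membrane-bound actin regulator, had a TE of 6.58, 5.69 and 7.7 without and 10.1 and 13.3 with KCl (0.82, SE 0.17, adjusted p = 0.000139). Fscn1, the actin bundler fascin, had 3.33, 2.06 and 2.58 without and 3.89 and 4.83 with KCl (0.74, adjusted p = 0.00113). Pdlim4 gained TE (0.76, adjusted p = 0.0117) while its mRNA fell by 1.56 on the log2 scale and its footprints by 0.78. Without culture 5 the changes of these genes were 0.62, 0.58 and 0.75 and none was called, and Pdlim4 was not called without culture 3 (0.74) or 4 (0.78). Of 26 tubulins and microtubule-associated proteins and 37 cell adhesion molecules, 0 were called. Kif1c, a kinesin of vesicle transport, was the 1 called motor of 29 and fell from 1.22, 0.968 and 0.81 to 0.292 and 0.233 (-1.98, adjusted p = 4.24e-10), with a call in all 5 fits without 1 culture.

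Among stress and metal genes, single members rose rather than whole lists. Fth1, the ferritin heavy chain whose mRNA carries an iron-responsive element, had a TE of 0.038, 0.0352 and 0.0232 without and 0.0971 and 0.101 with KCl (1.56, SE 0.19, adjusted p = 6.81e-13), and it was the 1 called gene of 8 in iron handling. Azin1, the antizyme inhibitor that protects ornithine decarboxylase, had 1.32, 1.34 and 1.7 without and 3.74 and 4.32 with KCl (1.50, SE 0.20, adjusted p = 6.67e-11), and it was the 1 called gene of 4 in polyamine synthesis. Both had RNAseq changes near 0 (-0.09 and 0.04) and were called in all 5 fits without 1 culture. Nfat5, the transcription factor of the response to high salt, rose in RNAseq by 1.76 and in TE from 0.808, 1.3 and 1.58 to 3.35 and 4.15 (1.73, adjusted p = 5.64e-12), having passed the filter in 0 untreated and both KCl cultures. For that reason the call of Nfat5 is given as a description. The chaperones of the cytosol had a median of 0.16 over 29 genes with 0 higher and 1 lower. The lower one was Bag1, a cochaperone of HSP70, at 0.629, 0.601 and 0.587 without and 0.257 and 0.261 with KCl (-1.23, adjusted p = 4.6e-05). ER chaperones and the unfolded protein response (18 genes), antioxidant genes (25) and selenoproteins (7) had 0 calls.

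**Figure D4:**
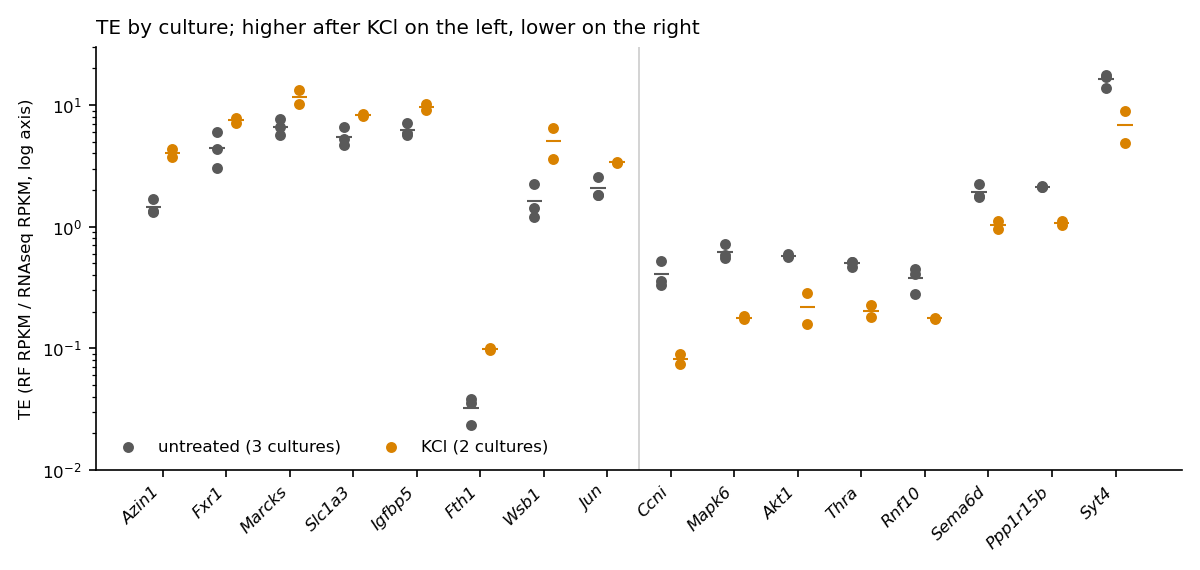
TE of 16 genes is plotted on a log axis for each untreated (grey, 3) and KCl (orange, 2) culture, with short lines at the group means. In the 8 genes on the left both KCl cultures lie above all untreated cultures, and in the 8 on the right both lie below.

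The machinery of translation itself changed in a few regulators. Of 24 initiation factors and their partners 3 were lower (12.5%, against 4.53% of all genes) and 0 higher, with a median of 0.04. Eif4e2, the cap-binding homologue 4EHP that can repress translation, had a TE of 4.34, 4.93 and 5.29 without and 3.06 and 1.63 with KCl (-1.15, adjusted p = 0.00055). Eif4ebp2, the eIF4E-binding protein of brain, fell from 2.66, 2.79 and 4.55 to 1.54 and 1.65 (-0.92, adjusted p = 0.0459), and Eif1ad changed by -1.13 (adjusted p = 0.0289). Without culture 5 their changes were -0.65, -0.99 and -0.72 (adjusted p = 0.577, 0.461 and 0.666). Eif4ebp2 and Eif1ad also lost their calls without culture 3 (-0.75 and -1.04) and 4 (-0.88 and -1.51). Among 49 translational regulators and decay factors, the FMRP relative Fxr1 had 3.01, 6 and 4.35 without and 7.1 and 7.84 with KCl (0.83, adjusted p = 0.00445). Celf4, a neuronal RNA-binding protein, rose as well (0.78, adjusted p = 0.0184), and Cnot6, a deadenylase of the CCR4-NOT complex, fell (-0.86, adjusted p = 0.0283). None of the 3 was called without culture 5 (0.75, 0.50 and -0.67). Calls ended too for Fxr1 without 1 (0.55) or 4 (0.91), for Celf4 without 3 (0.72), and for Cnot6 without 2, 3 or 4 (-0.75, -0.75 and -1.01). The 19 aminoacyl-tRNA synthetases had 0 calls and a median of 0.08, with Aars at 0.40 (adjusted p = 0.235). Only 3 cytosolic ribosomal proteins were measured, 0 of them called, with Rps3 at 2.96, 2.52 and 3.2 without and 3.45 and 3.35 with KCl (adjusted p = 0.494).

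Of the genes of the integrated stress response most rose in RNAseq, and TE calls were few. This pathway phosphorylates eIF2α, which lowers general initiation and favours mRNAs with suitable upstream reading frames. Of 10 measured, RNAseq rose in 6 and fell in 0, and TE was higher in 1 and lower in 2. Ddit3, which encodes CHOP, had 0.117, 0.183 and 0.505 without and 1.97 and 0.864 with KCl (2.68, adjusted p = 1.36e-05), on 7, 13 and 5 footprints without and 18 and 24 with KCl. It passed the filter in 1 untreated and both KCl cultures, so it was measured only through the group in which it was high, and its call is given as a description. Ppp1r15b, the constitutive partner of the eIF2α phosphatase, had 2.15, 2.1 and 2.1 without and 1.12 and 1.03 with KCl (-0.99, SE 0.21, adjusted p = 0.000243), while its mRNA rose by 1.80 on the log2 scale. Ifrd1 likewise rose in RNAseq by 2.32 and fell in TE (-0.98, adjusted p = 0.000848). Ppp1r15b lost its call without culture 5 (-0.92, adjusted p = 0.0956) and Ifrd1 without culture 4 (-0.87, adjusted p = 0.12).

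Ubiquitin ligases held more genes with lower TE than any other functional list, and were also the list with the most measured genes. Of 81 measured, 13 were lower (16% against 4.53% of all genes) and 1 was higher, and the median was -0.12 with 30 positive. Some smaller lists had a larger share, such as nuclear receptors (25% of 8), G protein-coupled receptors (23.1% of 13) and the clock (18.2% of 11). Ligases attach ubiquitin to chosen substrates and so set which proteins the proteasome or lysosome receives. March8, which ubiquitinates membrane proteins, had a TE of 0.936, 0.989 and 0.544 without and 0.267 and 0.311 with KCl (-1.58, SE 0.38, adjusted p = 0.0019), on 7 and 12 footprints with KCl. Rnf146, which recognises poly-ADP-ribosylated proteins, fell from 5.3, 6.27 and 4 to 2.8 and 1.81 (-1.24, adjusted p = 0.00623). Rnf11 (-1.23, adjusted p = 0.00804) and Rnf10 (-1.04, adjusted p = 0.000848) fell too, and in both RNAseq rose, by 0.95 and 0.74 on the log2 scale. The other called ligases of lower TE were Rnf130, Rnf145, Smurf1, Smurf2, March5, Ube3b, Trim9, Trim37 and Trim44, named here to complete the count and chosen after their values were seen. Wsb1, a substrate receptor of cullin ligases, rose in RNAseq by 1.75 and in TE from 1.2, 1.41 and 2.26 to 3.63 and 6.47 (1.69, adjusted p = 6.67e-11).

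The remaining steps of degradation showed fewer calls. Proteasome subunits had 0 of 30 called and a median of 0.03, with Psmb4 at 1.45, 1.41 and 1.78 without and 2.04 and 2.01 with KCl (0.40, adjusted p = 0.187). Deubiquitinases had 0 of 21 and a median of -0.04. Among 19 ubiquitin-conjugating enzymes Ube2e3 was lower (-1.01, adjusted p = 0.0192), and among 12 autophagy genes Ulk2, a kinase of autophagy initiation, was lower (-0.93, adjusted p = 0.0155). The ligase list rests on genes of few reads. With at least 100 reads in every library 22 ligases were left, with a median of 0.11. Among the ligases, March8 and Rnf10 were called in neither fit without a KCl culture (-1.48 and -1.71, and -1.03 and -1.06), Rnf11 not without culture 4 (-0.88) and Rnf146 not without culture 5 (-0.88). Ube2e3 and Ulk2 were called in neither fit without a KCl culture (-0.77 and -1.40, and -1.11 and -0.70), and Ulk2 not without culture 2 (-0.75).

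The MAP kinase and mTOR lists held 6 calls, all for lower TE, a direction shared by 198 of the 262 calls over all genes. MAP kinases and their phosphatases had 0 higher and 3 lower of 27 (11.1%, against 4.53% of all genes), with a median of -0.14. Mapk6, the atypical kinase ERK3, had a TE of 0.556, 0.718 and 0.586 without and 0.173 and 0.183 with KCl (-1.79, SE 0.28, adjusted p = 6.21e-08) with an RNAseq change of 0.13 (adjusted p = 0.533). Map4k4 fell from 1.64, 1.96 and 1.88 to 1.12 and 1.28 (-0.60, adjusted p = 0.0173), and Dusp18, a dual-specificity phosphatase, changed by -0.99 (adjusted p = 0.0337). The mTOR and PI3 kinase pathway had 0 higher and 3 lower of 25 (12%), with a median of -0.16. Relative to all genes, its culture medians were -0.24, -0.02 and -0.39 without and 0.02 and -0.07 with KCl. These overlapped and showed no fall of the list. Akt1, the kinase between PI3 kinase and mTOR, had 0.573, 0.566 and 0.595 without and 0.282 and 0.157 with KCl (-1.50, SE 0.27, adjusted p = 6.27e-06). Rraga, a GTPase that recruits mTOR to the lysosome, fell from 6.32, 5.26 and 3.98 to 2.31 and 1.75 (-1.36, adjusted p = 1.56e-07), but with RNAseq counted on the CDS only its change was 0.10 (adjusted p = 0.936). The third was Eif4ebp2, given above.

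Among cAMP, calcium and lipid kinases the share with lower TE was near that of all genes. Plce1, a phospholipase C, fell from 1.15, 1.47 and 1.32 to 0.68 and 0.604 (-1.03, adjusted p = 0.000538) and was the 1 called of 32 in this list (3.12%), whose median was -0.12. Mapk6 was called in all 5 fits without 1 culture. Akt1 and Plce1 lost their calls without culture 5 (-1.03 and -0.94), and Map4k4 (-0.57, -0.50 and -0.69) and Dusp18 (-0.94, -0.90 and -1.13) without culture 3, 4 or 5. Dusp18 was not called without culture 1 either (-0.96).

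Receptors at the cell surface held calls of lower TE with 1 exception. Of 13 measured G protein-coupled receptors 3 were lower and 1 higher, with a median of -0.37 and 4 positive. Their culture medians relative to all genes were 0.14, -0.18 and -0.01 without and -0.45 and -0.34 with KCl. S1pr1, a receptor of sphingosine 1-phosphate, had a TE of 3.01, 3.46 and 2.37 without and 1.53 and 1.85 with KCl (-0.80, adjusted p = 0.00987). Adgrl1, the adhesion receptor latrophilin 1, fell from 0.687, 0.632 and 0.664 to 0.41 and 0.37 (-0.77, adjusted p = 0.0108), and the orphan receptor Gpr19 fell with an mRNA that rose by 1.86 (-0.98, adjusted p = 0.00993). Ednrb, an endothelin receptor of astrocytes, was the higher one, at 4.35, 4.58 and 4.53 without and 6.1 and 6.93 with KCl (0.54, adjusted p = 0.0324). None of the 4 was called without culture 5, with changes of -0.95, -0.69, -0.64 and 0.45, and without culture 4 Gpr19 was called but not S1pr1 (-0.66), Adgrl1 (-0.82) or Ednrb (0.64). Without culture 3 the calls of Gpr19 (-0.89) and Ednrb (0.55) ended. With at least 100 reads in every library 5 of these receptors were left, with a median of 0.07.

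Receptor kinases and cytokine receptors had 0 higher and 2 lower of 21 (9.52%, against 4.53% of all genes), with 16 negative and a median of -0.17. Tnfrsf21, death receptor 6, had 0.64, 0.589 and 0.639 without and 0.333 and 0.361 with KCl (-0.83, adjusted p = 0.00821). Bmpr1a, a receptor of bone morphogenetic proteins, fell from 1.26, 2.29 and 1.53 to 0.927 and 1.07 (-0.71, adjusted p = 0.0238). Smo, the transducer of Hedgehog signals, was the 1 called of 13 in Wnt, Notch and Hedgehog, with 0.301, 0.302 and 0.408 without and 0.0531 and 0.0752 with KCl (-2.26, adjusted p = 5.6e-08) and a call in all 5 fits without 1 culture. Tnfrsf21 and Bmpr1a were called in neither fit without a KCl culture (-0.77 and -0.90, and -0.61 and -0.83), and Bmpr1a was not called without culture 2 (-0.42). Of 15 ion channels, 16 ion pumps and 4 ligand-gated receptors 0 were called, with Kcnj10, the potassium channel of astrocytes, at 3.59, 3.67 and 3.55 without and 3.39 and 3.22 with KCl (-0.13, adjusted p = 0.794).

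Secreted proteins held calls in both directions. Growth factors and morphogens had 2 higher (9.09%) and 3 lower (13.6%) of 22, against 1.46% and 4.53% of all genes. The 3 lower ones, Tgfb3, Gdf11 and Bmp6, belong to the TGF-beta superfamily, whose other members were not counted apart. Tgfb3 had a TE of 1, 0.911 and 0.764 without and 0.415 and 0.23 with KCl (-1.58, SE 0.35, adjusted p = 0.000416), on 13 and 13 footprints with KCl. Gdf11 changed by -0.89 (adjusted p = 0.0178) and Bmp6 by -0.76 (adjusted p = 0.0132). The higher ones were Igfbp5, which binds insulin-like growth factors, at 5.89, 5.71 and 7.08 without and 9.05 and 10.1 with KCl (0.63, adjusted p = 0.00445), and Spp1, osteopontin (0.64, adjusted p = 0.00974). None of the 5 was called without culture 5 (-1.12, -1.16, -0.61, 0.55 and 0.69), and only Tgfb3 of them was called without culture 4 (Gdf11 -0.67, Bmp6 -0.87, Igfbp5 0.72, Spp1 0.61). Gdf11 was not called without culture 2 (-0.79).

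In the extracellular matrix 2 fibrillar collagens fell. Of 39 measured genes 2 were lower (5.13%) and 1 higher (2.56%), against 4.53% and 1.46% of all genes. The share of lower genes was thus near that of all genes. Col3a1 had 4.14, 2.8 and 4.84 without and 1.56 and 1.91 with KCl (-1.13, SE 0.18, adjusted p = 1.01e-07), and Col1a1 had 3.88, 2.35 and 4.14 without and 1.23 and 2 with KCl (-1.08, SE 0.17, adjusted p = 1.7e-07). The KCl values lay below all untreated ones in both. With DESeq2 Col3a1 stayed called (adjusted p = 0.000473) but Col1a1 did not (adjusted p = 0.182). Col3a1 was called in all 5 fits without 1 culture, and Col1a1 lost its call without culture 4 (-0.73, adjusted p = 0.0832). Both belong also to the list of endothelial, mural and fibroblast markers, whose summed RNAseq was 872 to 1053 CPM without and 816 and 734 with KCl. Its summed RF was 1780 to 2249 and 1229 and 1340. These sums include both collagens. Of the 5 measured markers of the list 3 were positive in TE, with a median of 0.26. The part of these cells in the fall was not tested. Bgn, the proteoglycan biglycan, rose (0.59, adjusted p = 0.026) and was called in neither fit without a KCl culture (0.69 and 0.47), nor without culture 2 (0.53).

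Genes of the clock lay lowest of all lists in TE while RNAseq rose in 6 of them and fell in 1. Of 11 measured clock genes 10 were negative, 2 were lower and 0 higher, with medians of 0.93 for RNAseq, 0.33 for RF and -0.40 for TE. The culture medians of TE were -0.24, -0.36 and -0.38 without and -0.64 and -0.86 with KCl. Csnk1d, a kinase of the period proteins, had 2.15, 1.96 and 1.81 without and 1.31 and 1.32 with KCl (-0.59, adjusted p = 0.0254) and an mRNA that rose by 0.93. Bhlhe40, a repressor of the clock, had 1.98, 1.8 and 1.74 without and 1.58 and 0.796 with KCl (-0.76, adjusted p = 0.0195), so its change came mostly from culture 5, and without that culture it was -0.22. With RNAseq counted on the CDS only, the changes of Csnk1d and Bhlhe40 were -0.23 and -0.58 (edgeR adjusted p = 0.74 and 0.267). Both calls also ended with DESeq2 (adjusted p = 0.0893 and 0.186).

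Of 8 nuclear receptors 2 were lower in TE and 5 rose in RNAseq. Thra, a thyroid hormone receptor, had 0.516, 0.467 and 0.516 without and 0.225 and 0.181 with KCl (-1.32, SE 0.21, adjusted p = 6.21e-08), with a call in all 5 fits without 1 culture. Nr2f1, a regulator of cortical patterning, rose in mRNA by 1.05 and fell in TE from 1.45, 1.58 and 1.61 to 0.612 and 0.779 (-1.11, adjusted p = 0.00981). Csnk1d and Nr2f1 were called in neither fit without a KCl culture (-0.57 and -0.59, and -0.96 and -1.32), and Csnk1d was not called without culture 3 (-0.63).

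Developmental factors and chromatin enzymes held single called genes. Of 40 homeobox, SOX, FOX and related factors 3 were lower (7.5%) and 1 higher (2.5%), against 4.53% and 1.46% of all genes, with a median of 0.10. Foxk2 had a TE of 0.601, 0.785 and 0.615 without and 0.292 and 0.179 with KCl (-1.59, adjusted p = 4.72e-06), Lhx2, a cortical LIM factor, changed by -1.18 (adjusted p = 0.00238), and Meis3 by -1.81 (adjusted p = 0.00318) on 3 and 11 footprints with KCl. Of 37 remodelling and acetylation genes 3 were lower (8.11%) and 1 higher (2.7%). Among the lower ones was Hdac5, a histone deacetylase that calcium signals export from the nucleus, at 1.17, 0.531 and 0.85 without and 0.353 and 0.35 with KCl (-1.20, adjusted p = 0.000741). Hdac3 changed by -0.87 (adjusted p = 0.011), Brd1 by -0.73 (adjusted p = 0.0264) and Arid4b by 0.86 (adjusted p = 0.00441). Arid4b passed the filter in 1 untreated and both KCl cultures, so its call is given as a description. None of these 7 genes was called without culture 5, with changes from -2.55 for Meis3 to 0.70 for Arid4b. Without culture 4 Meis3 (-1.46) and Brd1 (-0.49) were not called. Leaving out an untreated culture ended the calls of Arid4b (0.63 without 1), Hdac3 (-0.83 without 3) and Brd1 (-0.64 without 1, -0.74 without 3). Spliceosome (23 genes), hnRNP (13) and nuclear pore (24) lists had 0 calls, and of 15 SR proteins and CLK kinases Clk4, a kinase of splicing factors, rose (0.97, adjusted p = 0.0137) but was not called without culture 2, 4 or 5 (0.82, 1.10 and 0.83).

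Proteins with several predicted membrane segments lay below the median in TE. Of 275 proteins with 4 or more hydrophobic segments 20 were lower (7.27%) and 3 higher (1.09%), and 188 were negative (median -0.14). Of 2931 with no segment 127 were lower (4.33%) and 53 higher (1.81%), with a median of 0.01. Proteins with 1 to 3 segments and the first near the N terminus lay between in the share of lower calls only, at 28 (5.57%) of 503. Their share of higher calls (3, 0.596%) was below both, and their median was 0.01. Median footprints per gene were 222 in the multi-pass class and 186 in the class with none. Of 48 transporters of the SLC families outside amino acid transport 6 were lower (12.5%) and 1 higher (2.08%). Slc25a39, a mitochondrial carrier of glutathione, had 0.493, 0.422 and 0.448 without and 0.235 and 0.121 with KCl (-1.49, adjusted p = 0.000174). The zinc transporter Slc30a5 fell from 1.45, 2.13 and 1.4 to 0.61 and 0.883 (-1.16, adjusted p = 0.00238). Slc25a44, a mitochondrial carrier of branched-chain amino acids (-1.03, adjusted p = 0.012), and Slc41a1, a magnesium transporter (-0.86, adjusted p = 0.00623), also fell, and Slc25a25, a mitochondrial ATP-magnesium carrier, rose (0.67, adjusted p = 0.0391). Slc25a39, Slc25a44 and Slc25a25 lost their calls without culture 5 (-0.95, -0.65 and 0.45), and Slc30a5 and Slc41a1 without culture 4 (-0.90 and -0.58). Slc25a25 was not called without culture 2, 3 or 4 either (0.56, 0.67 and 0.88), Slc25a44 not without 1 or 3 (-0.73 and -0.93), and Slc41a1 not without 3 (-0.77).

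Synaptic genes contributed few calls. Of 22 genes of vesicle release 1 was lower, Syt4, an activity-induced synaptotagmin, at 13.9, 17.8 and 17.1 without and 4.87 and 8.88 with KCl (-1.27, SE 0.25, adjusted p = 3.99e-05), while its mRNA rose by 2.38 on the log2 scale and its footprints by 1.12. Syt4 passed the filter in 0 untreated and both KCl cultures, so its call is given as a description. Of 15 axon guidance genes 1 was lower, Sema6d, a transmembrane semaphorin, at 1.77, 2.26 and 1.75 without and 1.11 and 0.949 with KCl (-0.91, adjusted p = 0.000344). Syt4 lost its call without culture 4 (-0.83, adjusted p = 0.184) and Sema6d without culture 5 (-0.79, adjusted p = 0.15). Baiap2, a postsynaptic scaffold, was the 1 called of 14 and rose (0.78, adjusted p = 0.0355), but its change was -0.12 with RNAseq counted on the CDS only and -0.41 with the transcript of the highest RF count, and it lost its call without culture 1, 3, 4 or 5 (0.71, 0.83, 0.95 and 0.59). SNAREs and tethers (43 genes) had 0 calls.

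The other genes with the largest falls were of mixed function. Ccni, an atypical cyclin, had a TE of 0.334, 0.525 and 0.356 without and 0.0738 and 0.09 with KCl (-2.26, adjusted p = 7.4e-12). Ei24, an ER membrane protein induced by p53, fell from 0.687, 0.863 and 0.645 to 0.194 and 0.159 (-2.08, adjusted p = 1.42e-12). Wwc1, the scaffold KIBRA of the Hippo pathway, fell from 0.418, 0.326 and 0.389 to 0.139 and 0.0904 (-1.76, adjusted p = 2.72e-13). Zc3h7b (-1.64) and 2610507B11Rik (-1.65) fell at adjusted p-values of 1.11e-08 and 7.4e-12. These 5 were called in all 5 fits without 1 culture. Rpp38, a protein of ribonuclease P, changed by -3.30 (adjusted p = 0.000861) on 1 and 2 footprints with KCl, and Fam81a by -2.06 (adjusted p = 7.76e-05) on 10 and 6, and both lost their calls without culture 5 (-3.35 and -1.47).

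In 5 of the other 6 largest rises the mRNA fell. Dguok, a mitochondrial deoxyguanosine kinase, had 1.45, 1.42 and 1.03 without and 7.72 and 4.47 with KCl (2.09, adjusted p = 0.00794), with changes of -3.23 in RNAseq and -1.13 in RF. With KCl these values rest on 5 and 7 RNAseq reads and 13 and 18 footprints. Cisd1, an iron-sulphur protein of the outer mitochondrial membrane, went from 0.514, 0.316 and 0.273 to 0.956 and 0.938 (1.28, adjusted p = 0.00422). Abcc5, an efflux transporter, changed by 1.45 (adjusted p = 0.00484) and H2afx, a histone variant of DNA repair, by 1.23 (adjusted p = 0.00163), but with RNAseq counted on the CDS only their changes were 0.10 and -0.04. Sssca1 (1.25, adjusted p = 0.00397) and Alkbh7 (1.12, adjusted p = 0.0417) completed the 12 largest. Dguok (1.75 and 2.52), Cisd1 (1.29 and 1.30), Abcc5 (1.44 and 1.47) and Alkbh7 (1.19 and 1.05) were called in neither fit without a KCl culture, and H2afx and Sssca1 were not called without culture 4 (0.98 and 0.80). H2afx (0.89) and Alkbh7 (0.85) were not called without culture 2.

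Genes that lost TE had longer 5′UTRs with more uAUGs. The median 5′UTR was 292 nt in the genes with lower TE, 178 nt in those with higher TE and 178 nt in all genes. At least 1 uAUG was present in 77.8% of the first, 32.8% of the second and 48.5% of all 5′UTRs of at least 20 nt. The genes with lower TE differed in other medians too. Against all genes, 5′UTR GC was 71.4% to 66.4%, the CDS 1593 to 1172 nt and the 3′UTR 1414 to 988 nt. Untreated TE was 1.18 to 1.91 and footprints per gene 157 to 200. The part of each feature was not tested. A uAUG within ANNATGG or GNNATGG, the sequence around a start codon that favours initiation, searched on the mRNA strand, was present in 84 of 194 genes with lower TE (43.3%), in 3 of 64 with higher TE (4.69%) and in 713 of all 4256 (16.8%). Windows of 24 bases around the first such uAUG are given for 4 of the 12 genes with the largest falls, with the uAUG in capitals, as in the GRCm38 transcripts of GENCODE. Of those 12 genes 6 had such a uAUG and 6 had none, among them Rpp38, Ei24 and Wwc1.

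Ccni: cccagggtcatcATGgaactagtt
Smo: gcgctgctcaacATGgggcccggg
Kif1c: cccaagtgtaggATGgggctcccc
Mapk6: tatcagagtaagATGgacggtagc

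The window of Ccni lies in exon 1 of 7 at chr5:93206149-93206172 on the minus strand, and its frame ends after 5 codons. That of Smo lies in exon 1 of 12 at chr6:29735798-29735821 on the plus strand with a frame of 35 codons. That of Kif1c lies in exon 2 of 23 at chr11:70702466-70702489 on the plus strand with 25 codons, and that of Mapk6 in exon 2 of 6 at chr9:75398724-75398747 on the minus strand with 17 codons. All 4 are in the 5′UTR, 291, 201, 102 and 602 nt before the annotated start codon, and their frames end within the 5′UTR. Mapk6 has 13 uAUGs in all. A match is a description of the sequence and no test of initiation there.

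The share of genes with lower TE rose from 43 of 2190 with no uAUG (1.96%) to 67 of 1353 with uAUGs in other contexts (4.95%) and 84 of 713 with one in the strong context (11.8%). The share with higher TE went the other way, at 43 (1.96%), 18 (1.33%) and 3 (0.421%). The order of the lower shares held within each band of 5′UTR length. Between 300 and 600 nt they were 5 of 169 (2.96%), 23 of 392 (5.87%) and 41 of 296 (13.9%). Median footprints per gene were 216, 199 and 170 in the 3 classes.

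**Figure D5:**
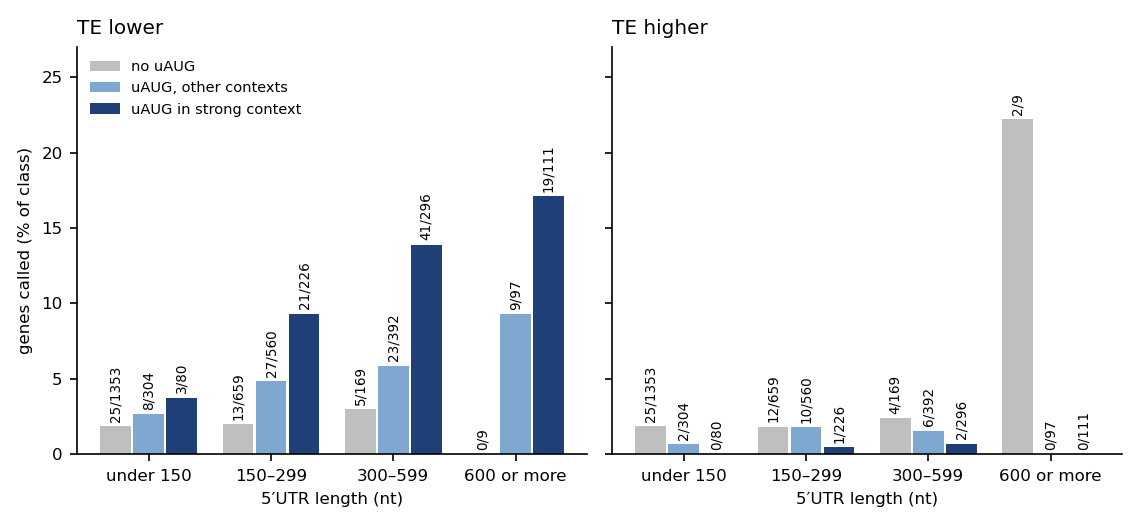
Bars give the percentage of genes called lower (left) or higher (right) in TE, by length of the 5′UTR and by whether it holds no uAUG (grey), uAUGs in other contexts (light blue) or a uAUG in the strong context (dark blue), with the genes called and measured above each bar. The dark bars for lower TE are the tallest of each length band, reaching 17.1% from 600 nt, while the grey bar of the longest band for higher TE is 2 of 9 genes.

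The functional lists shared this feature unevenly. All 3 called MAP kinase genes were among the 6 of that list with a uAUG in the strong context, whose median change was -0.60, against -0.02 for the 12 with no uAUG. Of 11 SLC transporters with such a uAUG 4 were lower (median -0.62), and of 19 with no uAUG 0 were called (median -0.03). Among multi-pass proteins 2 of 109 with no uAUG were lower (1.83%), against 12 of 104 with uAUGs in other contexts (11.5%) and 6 of 58 with one in the strong context (10.3%). Ubiquitin ligases held calls of lower TE with and without uAUGs, in 4 of 27 genes with no uAUG (14.8%) and 5 of 22 with one in the strong context (22.7%). The medians of these groups were 0.03 and -0.37, so the ligases with no uAUG were not lower as a group. In 3 other lists most of the lower genes had no uAUG. In the mTOR and PI3 kinase list 2 of 9 genes with no uAUG were lower and 0 of 4 with one in the strong context, among histone and DNA methylation enzymes 2 of 14 and 0 of 5, and among remodelling and acetylation genes 2 of 12 and 1 of 13. Of the mitochondrial ribosomal proteins 24 had no uAUG and 3 had one in the strong context.

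Footprints on the 5′UTR did not fall with those on the CDS. Of the genes with lower TE, 147 had at least 50 footprints on the 5′UTR over all libraries. In these the median log2 change was 0.24 for 5′UTR footprints, -0.67 for CDS footprints and 0.27 for RNAseq. In 41 genes with higher TE the values were 0.02, 0.71 and -0.09, and in all 2193 genes with as many footprints they were 0.10, 0.03 and 0.06. Over the genes with lower TE, the 5′UTR took 10.5%, 8.91% and 12.9% of 5′UTR and CDS footprints without KCl, against 17.4% and 19.4% with it. Over all genes tested the shares were 6.36%, 5.86% and 8.5% and then 6.58% and 7.23%. The shares use the CDS footprints that made the calls, and they are given as a description.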

How the data were processed

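RNAseq and RF were measured in 3 untreated and 2 KCl-treated cultures, after the authors dropped another KCl replicate whose library was small (paper's methods). The authors trimmed reads with Trimmomatic 0.32, removed rRNA with STAR 2.3.1z8, aligned the rest with Bowtie2 2.2.2 to the mm10 transcriptome, kept multi-mapped reads, and deposited raw counts of reads per transcript region from bedtools 2.20.1. Reads can thus be shared between isoforms or near-identical paralogs. The paper's methods leave out positions near start and stop codons for TE. This could not be repeated from counts per region.

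Of 22534 transcripts 22177 (98.42%) were matched to GRCm38 (GENCODE) for names, region lengths and sequences. The deposited counts mark regions by the letters a to d, which are not defined there. From lengths and read shares, a, b and d were read as 5′UTR, CDS and 3′UTR, and c was left unnamed. RNAseq was counted over all regions and RF over region b, called the CDS here. All TE values and 5′UTR footprints rest on this reading. Differences were tested with edgeR 4.0.16 (R 4.3.3, robust quasi-likelihood, TMM within each assay), with culture as a block for TE and Benjamini-Hochberg adjustment over 4370 genes. TMM factors were 1.02 to 1.04 in untreated and 0.944 to 0.964 in KCl libraries. The SE of a log2 change is its absolute value over the square root of the F statistic, an approximation. TE of single cultures is the RF over the RNAseq RPKM at TMM library sizes. RNAseq and RF libraries with the same number come from the same culture and are paired by the labels. Within treatment, their deviations from the group mean correlated by -0.0635 to 0.0622 across genes, so the counts themselves show no pairing. Labels do not state that cultures came from different litters, and p-values measure the spread between these cultures. An exact permutation test of 3 against 2 cultures cannot give a p below 0.1 and was not used.

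The lists, classes and named genes were chosen with earlier results of these data known. The rule named, in each list, up to 4 members called in each direction, else up to 2 of the highest mean RNAseq count, and over all genes the 12 largest rises and falls whose KCl cultures lay beyond all untreated ones. Called genes named for lists not described are left out of the text. Hydrophobic segments were windows of 19 residues with a mean Kyte-Doolittle score of at least 1.6. Of the 4370 genes, 25 passed the filter in fewer than 2 untreated cultures, 3 of them with higher (Arid4b, Ddit3 and Nfat5) and 1 with lower TE (Syt4). The fits were tested on simulated counts. Alternatives were DESeq2 1.42.0, other scalings, filters, transcripts and RNAseq regions, no block, and leaving out each culture. A gene and a gene list are not reported here.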

Additional observations from a re-analysis of the deposited data

How the results depend on the processing

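These values are limited by the number of cultures, 2 or 3 in a group, and by depth, since untreated culture 3 and KCl culture 4 had few footprints. Without KCl culture 4, 77 of the 262 calls were kept, and without the deeper KCl culture 5, 55. Of 4370 genes, 755 had an unadjusted p under 0.05. Genes with higher and lower TE numbered 64 and 198, and 20 and 84 with DESeq2, 32 and 97 with RNAseq counted on the CDS only, and 18 and 31 of the 1480 genes with at least 100 reads in every library. Leaving out 1 culture gave 10 to 115 higher and 45 to 227 lower. Scaling to library totals gave 61 and 197, TMM over all 10 libraries 61 and 207, the filterByExpr filter 72 and 198, a minimum of 1 read 56 and 187, the transcript of the highest RF count 59 and 194, and sums over transcripts 58 and 195. Without the replicate block, which pairs the RNAseq and RF libraries of a culture, 58 were higher and 194 lower, with 242 of the 262 calls shared. Genes with lower RF after KCl numbered 873, and 572 with DESeq2. Without 1 culture they ranged from 387 to 922, genes with lower RNAseq after KCl from 443 to 713 and genes with higher RF after KCl from 523 to 958.

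With at least 100 reads in every library, the median change of TE turned to 0.11 for ubiquitin ligases and 0.07 for G protein-coupled receptors, and was -0.00 for MAP kinases, -0.05 for 5′UTRs with 5 or more uAUGs and 0.08 for the respiratory chain. With RNAseq on the CDS only it was -0.07 for receptor kinases. For 5′UTRs with no uAUG (0.04) it was 0.05 with DESeq2, with RNAseq on the CDS and with sums over transcripts, and 0.06 with filterByExpr. Without 1 culture the medians ranged from -0.19 to -0.03 for ubiquitin ligases, -0.36 to -0.21 for G protein-coupled receptors, -0.19 to -0.06 for receptor kinases, -0.18 to -0.09 for 5 or more uAUGs and 0.04 to 0.06 for no uAUG. Of single genes, 3 turned with RNAseq on the CDS, Baiap2 (-0.12), H2afx (-0.04) and Rraga (0.10), and Baiap2 turned with the transcript of the highest RF count (-0.41). The cause was not tested. Of the 118 called genes followed singly, DESeq2 ended the call of 59.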

Other observations

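Reactome pathways with 10 to 150 measured genes were read in the same way, and the ones named here were chosen after their values were seen. The lowest medians of TE included the circadian clock at -0.42 over 13 genes, and pathways of TGF-beta. The set in which the SMAD2, SMAD3 and SMAD4 heterotrimer regulates transcription had a median of -0.34 with 0 of 12 genes positive and 0 called. Downregulation of TGF-beta receptor signalling had one of -0.31 over 10 genes with 2 lower. The highest medians included those of tubulin folding by the CCT/TriC chaperonin, at 0.36 over 11 genes with 0 called, the citric acid cycle at 0.26 over 12 genes, and mitochondrial translation at 0.25 over 41 genes with 34 positive. These sets share genes with one another and with the lists described above.

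By protein size, proteins of under 150 residues had 8 higher and 7 lower (1.71%) of 409, with a median of 0.06, and those of over 1500 residues had 3 higher and 10 lower (6.29%) of 159, against 4.53% lower over all genes, with a median of -0.04. The short class had a median of 90 footprints per gene and the long class 550. Proteins with at least 3 C2H2 zinc fingers had 1 higher and 2 lower of 48, and those ending in an ER retrieval signal of the KDEL type 0 of 20.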
